A study of Mus musculus with 12 samples.

Results

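The potassium channel gene family was examined in the injured and naïve white matter of the mouse spinal cord at 2 ages. Members were the protein-coding genes whose symbol starts with Kcn and that had 10 or more counts in at least 3 of the 12 columns of the count table. Of 46078 gene identifiers, 94 were protein-coding Kcn genes, and 63 of these met the rule. White matter of the ventrolateral cord of C57Bl6 mice was collected by laser microdissection, which cuts a region out of a thin section under the microscope, and its RNA was sequenced. There were 4 groups. Young naïve and middle-aged naïve mice carried no lesion, and young injured and middle-aged injured mice were sampled 72 h after lysolecithin, a detergent that strips myelin from axons, was injected into the cord. By the study's methods the young mice were 6 weeks and the middle-aged mice 8 months old. The labels state no ages in numbers. Every group comprised 3 libraries, each from tissue pooled over 5 mice, and variation from mouse to mouse within a pool cannot be seen. The naïve mice are not described as injected, so that the effects of lysolecithin and of the injection cannot be told apart.

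Potassium channels let potassium ions leave or enter cells along their gradient and so set the resting potential and end the action potential. The voltage-gated channels (Kv) are built from pore-forming subunits joined by auxiliary subunits. The inward rectifiers (Kir) hold the resting potential and, in glia, take up potassium that active axons release. The two-pore-domain channels carry background currents, and other channels open with intracellular calcium or sodium. In myelinated axons Kv1 channels lie under the myelin beside the node of Ranvier, whereas Kir4.1 is the main potassium channel of astrocytes and oligodendrocytes, and microglia and macrophages use a different set.

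The libraries held 9834447 to 12807437 counts, and 3 counts, taken as the floor of detection, corresponded to 0.234 to 0.305 CPM (counts scaled to a common library size) by the library totals. Levels are given as CPM after TMM adjustment of the totals, or as CPM per kb of exon where genes are compared with each other. The correlation of log2 CPM between pools of a group was 0.937 to 0.988, and the lowest value involved middle-aged naïve replicate 2. The tissue label was checked against marker genes. The 8 oligodendrocyte markers summed to 88926 to 104823 CPM in the young naïve and 54476 to 62195 CPM in the middle-aged naïve pools, and neuronal markers, among them those of cell bodies such as Rbfox3, were also present. The summed neuronal markers differed among the young naïve pools, with 3669, 2649 and 1451 CPM in replicates 1, 2 and 3. Of the 62 members tested, 39 had their highest young naïve level in replicate 1 and 38 had their lowest in replicate 3. Counts of members are therefore also given without these pools.

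With injury most members of the family fell at both ages, and few rose. In edgeR's quasi-likelihood test, adjusted over the 15866 genes tested, 39 of 62 tested members (62.9%) were lower and 5 (8.1%) were higher in young injured than in young naïve pools, at an adjusted p under 0.05. Over all genes tested, 26.3% were lower and 28.3% were higher in that comparison. In the middle-aged pools 44 members (71.0%) were lower and 4 (6.5%) were higher, against 29.3% lower and 29.2% higher over all genes. The median log2 fold change of the members was −1.35 in the young and −1.29 in the middle-aged pools, whereas that of all genes was 0.001 and −0.032. The same direction was called at both ages for 36 members that fell and 4 that rose, and 10 members were called at neither age. Over all genes, 22.8% fell and 24.5% rose at both ages, and 34.3% were called at neither. Of the others, 3 fell in the young and were not called in the middle-aged pools, 8 fell in the middle-aged and were not called in the young, and Kcna3 rose in the young and was not called in the middle-aged. Without young naïve replicate 1 the young comparison called 36 members lower and 4 higher, and without replicate 3 it called 39 lower and 4 higher. Without middle-aged naïve replicate 2 the middle-aged comparison called 44 lower and 4 higher, and the young one, which shares its estimate of spread, 44 lower and 6 higher.

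The count rule itself could favour a difference for 5 members. Kcna3, Kcnn4 and Kcnq1 reached 10 counts in at least 3 columns only in injured pools, and Kcns2 and Kcnk9 only in naïve pools. Without these 5, 38 of 58 tested members were lower and 3 higher in the young, and 44 were lower and 3 higher in the middle-aged pools. Kcnk9, which encodes the acid-sensitive background channel TASK-3, did not pass the filter on low counts and was not tested. Its highest level was 1.84 CPM, in a middle-aged naïve pool. Leaving out a pool loosens that filter, which depends on the size of the smallest group. In 11 of the 12 fits without 1 pool Kcnk9 passed the filter and was called lower in the middle-aged comparison (log2 −2.23 to −2.88). The exception was the fit without middle-aged naïve replicate 3, a pool with 23 counts against 5 and 6 in the others of its group. Fits without a young pool use the same middle-aged pools, so that the 11 fits are not separate pieces of evidence. Kcnk9 is also one of the members that only naïve pools brought in.

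**Figure D1:**
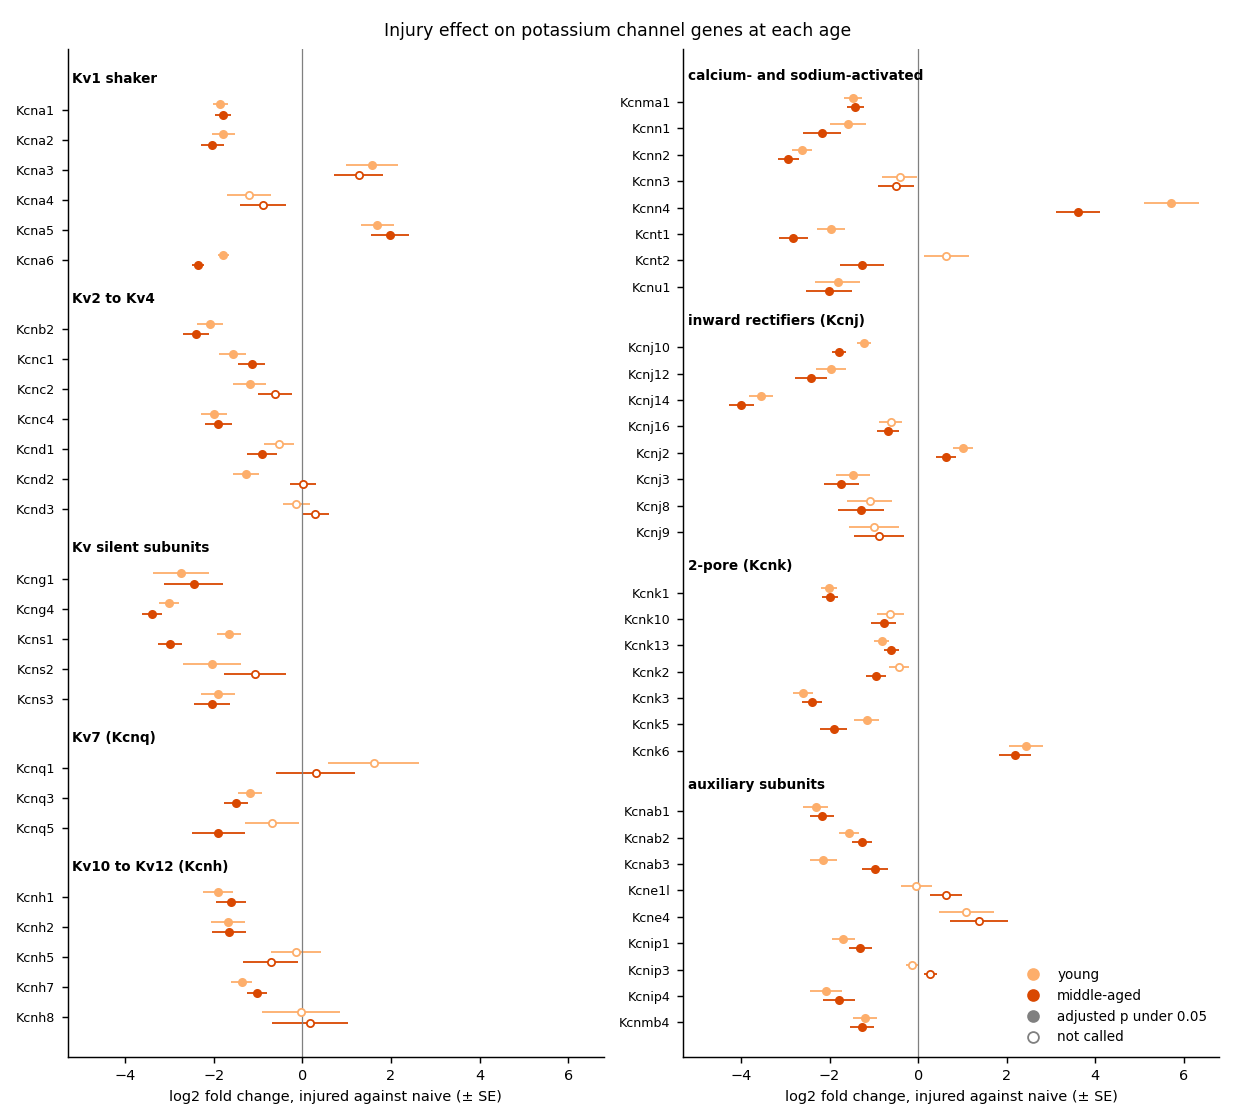
Log2 fold change of injured against naïve pools (points, ± SE, from edgeR) for 58 of the 62 tested members, by subfamily, with the young comparison in light orange and the middle-aged in dark orange; filled points had an adjusted p under 0.05. Most points lie left of 0 at both ages, and Kcnn4 (5.71 in the young, 3.60 in the middle-aged) and Kcnk6 (2.43 and 2.19) lie farthest to the right.

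Summed over the 63 members, the level per kb of exon was 703 ± 102 CPM per kb (SD, n = 3) in young naïve, 649 ± 34.0 in middle-aged naïve, 268 ± 14.2 in young injured pools and 220 ± 27.3 in middle-aged injured pools. The highest injured pool reached 283 CPM per kb and the lowest naïve pool 605, so that the groups did not overlap. CPM is a share of the counts in a library of bulk tissue. The lower level alone therefore does not show fewer cells of a kind or less RNA in each cell, and its cause was not tested. Few genes made up most of this sum. Kcnj10, which encodes Kir4.1, took 35.3% of it in young naïve, 38.5% in middle-aged naïve, 39.6% in young injured pools and 33.1% in middle-aged injured pools. Kcna1, which encodes Kv1.1, came next in each group, with 16.2%, 15.0%, 11.8% and 12.8%. The third place was held by Kcnk1 in young naïve pools (41.5 ± 10.2 CPM per kb) and by Kcnab2 in the other groups. In young naïve pools Kcnk1 and Kcnab2 (37.2 CPM per kb) differed by less than the spread between pools.

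**Figure D2:**
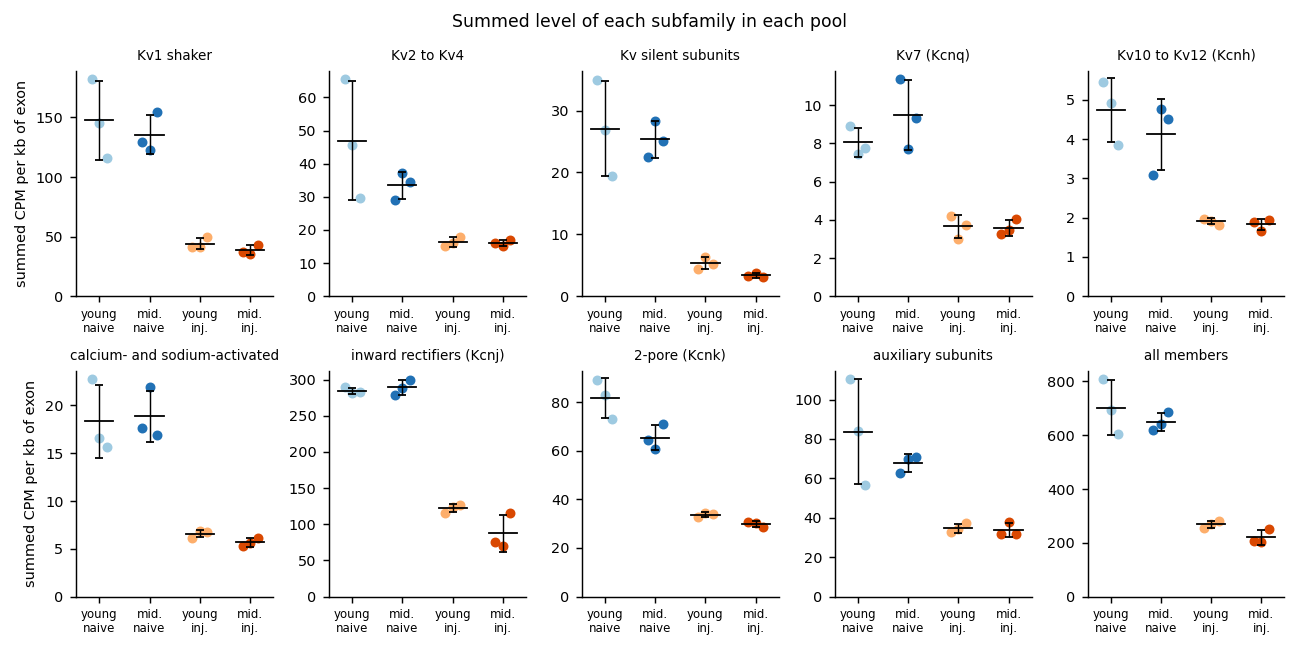
Summed CPM per kb of exon of each subfamily in each pool (points), with the mean (line) and SD (bar) of the 3 pools of a group; all axes are linear and start at 0. All 9 subfamilies had lower sums in the injured than in the naïve pools of the same age, and the inward rectifiers held the largest sum in each group (284 ± 4.26 in young naïve, 87.2 ± 25.1 in middle-aged injured pools).

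Cell type markers moved with injury as well, and their part in the changes of the family was not tested. All 8 oligodendrocyte markers fell at both ages, from a sum of 97423 to 20805 CPM in the young and from 58566 to 10448 CPM in the middle-aged means. Of 7 astrocyte markers, 6 fell at both ages, including Aqp4, Gja1 and Gfap, and Aldh1l1 was not called. Of 8 neuronal markers, 6 fell in the young and 6 in the middle-aged, where Slc17a6 rose. All 7 pan-myeloid markers rose, with sums of 79.5 to 112 CPM in young naïve, 126 to 176 in middle-aged naïve, 1612 to 1648 in young injured pools and 1697 to 2223 in middle-aged injured pools. All 5 markers of recruited monocytes and macrophages rose as well, from sums of 0.36 to 3.17 CPM over the naïve pools to 245 to 598 over the injured ones. Of 6 microglial markers, 3 rose and 1 fell in the young and 2 rose and 2 fell in the middle-aged pools, and all 5 fibroblast markers rose at both ages. Of 5 markers of oligodendrocyte progenitors, 2 rose and 1 fell in the young and 2 rose and 2 fell in the middle-aged pools.

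**Figure D3:**
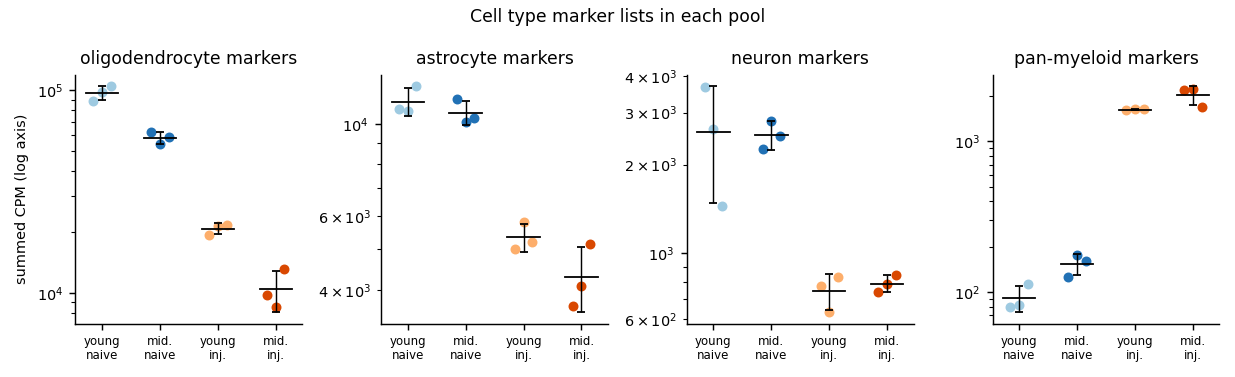
Summed CPM of 4 lists of cell type markers in each pool (points), with mean and SD of 3 pools, on log axes. Oligodendrocyte, astrocyte and neuronal sums are lower, and pan-myeloid sums higher, in every injured pool than in the naïve pools of the same age, and the neuronal sum of the young naïve pools runs from 1451 to 3669 CPM.

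Promoters of 4 members are shown to let the members that rose be set beside those that fell. Kcnn4 and Kcnj2 rose at both ages, and Kcnj10 and Kcna2 fell at both ages. Each sequence is the 250 bases before the start of the gene in RefSeq (GRCm38.p6), read 5′ to 3′ on the plus strand, at chr7:24370013-24370262 for Kcnn4, chr11:111065914-111066163 for Kcnj2, chr1:172340960-172341209 for Kcnj10 and chr3:107101317-107101566 for Kcna2. By the GENCODE positions used elsewhere here, Kcna2 spans chr3:107101146-107115005, so that its window lies inside the annotated gene. Capitals mark matches, on either strand, to the GC box (GGGCGG) and the E-box (CACGTG).
Kcnn4: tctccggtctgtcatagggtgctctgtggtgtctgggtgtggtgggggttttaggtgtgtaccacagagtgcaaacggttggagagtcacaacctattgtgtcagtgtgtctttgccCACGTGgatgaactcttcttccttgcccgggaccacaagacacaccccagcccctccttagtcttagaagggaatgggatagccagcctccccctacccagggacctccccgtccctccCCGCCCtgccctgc
Kcnj2: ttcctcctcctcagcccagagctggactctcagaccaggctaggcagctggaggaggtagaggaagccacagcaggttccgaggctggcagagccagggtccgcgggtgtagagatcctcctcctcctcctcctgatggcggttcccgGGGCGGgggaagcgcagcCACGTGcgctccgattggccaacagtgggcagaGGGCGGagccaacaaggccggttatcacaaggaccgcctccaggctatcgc
Kcnj10: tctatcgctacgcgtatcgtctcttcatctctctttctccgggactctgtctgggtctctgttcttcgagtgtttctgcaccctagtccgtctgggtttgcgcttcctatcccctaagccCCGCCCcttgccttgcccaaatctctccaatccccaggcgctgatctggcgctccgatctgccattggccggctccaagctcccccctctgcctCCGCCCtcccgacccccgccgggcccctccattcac
Kcna2: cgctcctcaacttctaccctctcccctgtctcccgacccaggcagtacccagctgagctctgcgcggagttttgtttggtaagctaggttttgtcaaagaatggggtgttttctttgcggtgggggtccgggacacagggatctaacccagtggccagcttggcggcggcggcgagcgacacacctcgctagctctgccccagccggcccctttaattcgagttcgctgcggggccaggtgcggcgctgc
The Kcnn4 and Kcnj2 windows each held 1 E-box. Kcnn4 held 1 GC box, Kcnj2 and Kcnj10 each held 2, and none of the 6 motifs searched was found in that of Kcna2. The window of Kcna5, the third member with an entry that rose at both ages, held none of them either. RefSeq had entries for 44 of the 63 members, 66 windows in all, and none for Kcna1 or Kcnk6. A GC box was present in 43.9% of the members' windows and in 32.7% of the 32851 windows of all genes. An E-box was present in 7.6% against 6.0%, AP-1 (TGANTCA) in 4.5% against 6.7%, a STAT motif (TTCNNNGAA) in 7.6% against 7.0%, a TATA box (TATAAA) in 3.0% against 12.4% and a PU.1 motif (GAGGAAGT) in 0.0% against 2.4%. All motifs were searched on both strands. The median GC content was 59.0% in the members' windows and 52.4% in all. Of the 23 genes lower at both ages that had an entry, 16 of their 32 windows held a GC box. An E-box was held by 2 of these windows, both of Kcnab1. These matches are descriptions of sequence and do not show binding.

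The inward rectifiers were the most abundant subfamily. Kcnj10 (ENSMUSG00000044708, chr1:172341210-172374085, plus strand) had 1344, 1316 and 1368 CPM in young naïve, 1282, 1346 and 1428 in middle-aged naïve, 547, 585 and 592 in young injured pools and 346, 316 and 518 in middle-aged injured pools. All injured pools lay below all naïve ones, and middle-aged injured replicate 3 was the highest of its group. The log2 fold change with injury was −1.22 ± 0.15 (SE; adjusted p = 9.57e-06) in the young and −1.78 ± 0.16 (adjusted p = 2.32e-07) in the middle-aged pools. Kcnj16 encodes Kir5.1, which joins Kir4.1 in a shared channel. It had 60.9, 52.6 and 53.2 CPM in young naïve, 70.0, 43.7 and 58.3 in middle-aged naïve, 32.8, 37.1 and 38.6 in young injured and 26.0, 26.0 and 55.5 in middle-aged injured pools. The groups were separate in the young and overlapped in the middle-aged through middle-aged injured replicate 3. Its log2 fold change was −0.62 ± 0.25 (adjusted p = 0.0517) in the young and −0.68 ± 0.26 (adjusted p = 0.0329) in the middle-aged comparison, and both stood near the threshold. The middle-aged adjusted p was 0.126 and 0.0668 without middle-aged naïve replicate 1 or 3 and 0.142 and 0.14 without middle-aged injured replicate 1 or 2. It was 0.0676 with library totals alone and 0.0895 in the fit of only the pools compared. The young comparison passed in 10 of 20 alternative settings. Among them were DESeq2 (adjusted p = 0.05 after rounding), the fit of only the pools compared (0.00103) and the fits without middle-aged injured replicate 3 (0.00678) or middle-aged naïve replicate 2 (0.0322).

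The ratio of Kcnj10 to Kcnj16 per kb of exon was therefore computed in each pool. It was 16.1, 18.2 and 18.7 in young naïve, 13.3, 22.4 and 17.8 in middle-aged naïve, 12.1, 11.5 and 11.2 in young injured and 9.68, 8.85 and 6.79 in middle-aged injured pools. Each injured pool lay below each naïve pool of its age. The 2-sided exact permutation test gave p = 0.1 at each age, the smallest that 3 pools against 3 allow, and 0.286 after adjustment over 10 such ratio tests. These tests could not pass the threshold and show neither a change nor its absence.

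Of the other inward rectifiers, Kcnj14 (Kir2.4) fell most. It had 46.5, 46.2 and 27.1 CPM in young naïve and 42.2, 61.7 and 37.1 in middle-aged naïve pools, against 3.08 to 3.64 in young injured and 2.42 to 3.75 in middle-aged injured pools. The groups were far apart, and the log2 fold change was −3.55 ± 0.27 in the young and −3.99 ± 0.28 in the middle-aged comparison (edgeR adjusted p = 8.04e-08 and 2.74e-08). Of its transcript, 30.8% of stretches of 50 bases also occur elsewhere among the transcripts, and the pseudogene Gm5522, which shares sequence with it, had 0 counts in all pools. Kcnj12 (Kir2.2) fell by 1.96 and 2.42 on the log2 scale. Kcnj3 (GIRK1, opened by G proteins) fell by 1.47 and 1.73, and 31.1% of its exon bases lie under Gm26794, which had 0 to 33 counts. Kcnj8, the Kir6.1 pore of ATP-sensitive channels known from pericytes, had log2 fold changes of −1.10 (adjusted p = 0.0858) and −1.28 (adjusted p = 0.0457). The second passed in 11 of 20 alternative settings and was lost without middle-aged naïve replicate 1 or 2, without middle-aged injured replicate 1 or 2 and without any of the young injured pools (adjusted p = 0.0529 to 0.167). Kcnj9 (GIRK3) was called at neither age, and in the young it was called without middle-aged naïve replicate 1 (adjusted p = 0.043). In contrast Kcnj2 (Kir2.1, a strong rectifier also found in microglia) rose. Its levels were 6.38, 10.5 and 8.28 CPM in young naïve, 10.7, 7.34 and 9.04 in middle-aged naïve, 17.7, 15.2 and 18.2 in young injured and 13.3, 11.7 and 16.7 in middle-aged injured pools. The injured pools were above the naïve ones at both ages, by log2 1.02 ± 0.22 (adjusted p = 0.00142) in the young and 0.62 ± 0.22 (adjusted p = 0.027) in the middle-aged. The second value was 0.48 (adjusted p = 0.117) without middle-aged injured replicate 3, and without middle-aged naïve replicate 2 or 3 its adjusted p was 0.0685 and 0.0523.

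**Figure D4:**
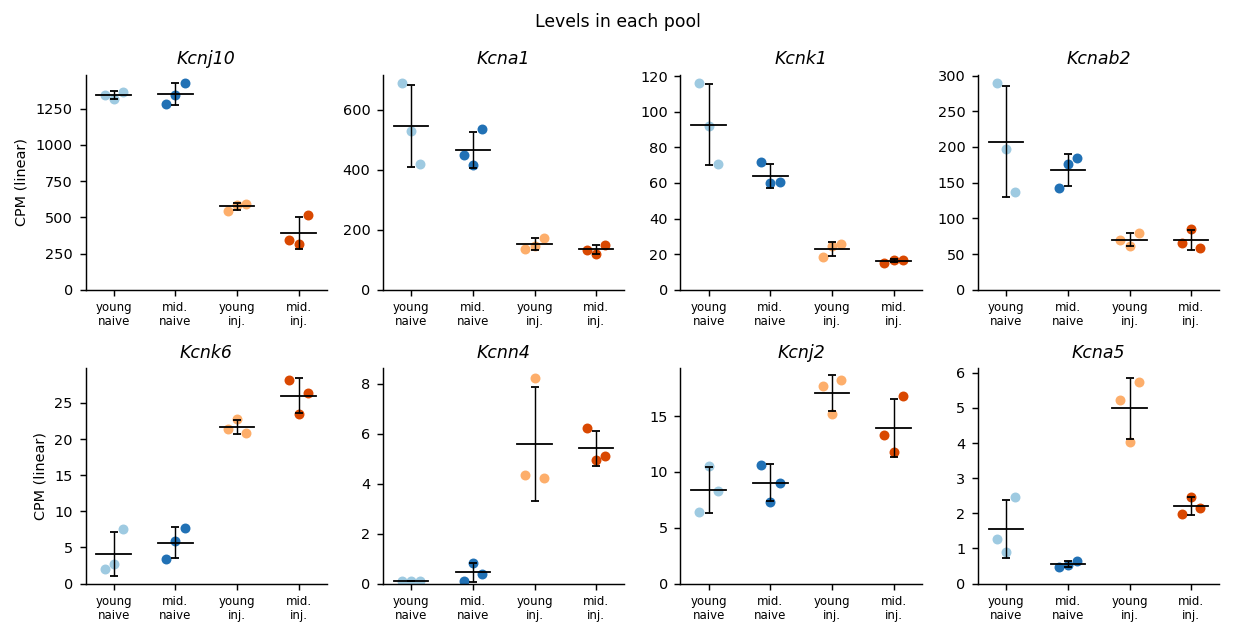
CPM in each pool (points) of 8 members, with the mean (line) and SD (bar) of the 3 pools of a group, on linear axes that start at 0. Kcnj10, Kcna1, Kcnk1 and Kcnab2 are lower in all injured pools than in the naïve pools of the same age, and Kcnk6, Kcnn4, Kcnj2 and Kcna5 are higher.

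The Kv1 genes Kcna1, Kcna2 and Kcna6 fell at both ages, and of 2 Kv1 genes with low counts Kcna5 rose at both ages and Kcna3 in the young. Kcna1 had 689, 529 and 419 CPM in young naïve, 447, 417 and 534 in middle-aged naïve, 135, 144 and 173 in young injured pools and 134, 120 and 149 in middle-aged injured pools. The naïve pools were all above the injured ones, and the young naïve pools followed the order of their neuronal marker sums. Its log2 fold change was −1.85 ± 0.17 (adjusted p = 5.90e-07) in the young and −1.79 ± 0.17 (adjusted p = 6.99e-07) in the middle-aged. Kcna2 (Kv1.2, its partner at the juxtaparanode) fell from 165 ± 68.6 to 47.9 ± 7.22 CPM in the young and from 150 ± 28.0 to 36.9 ± 8.09 CPM in the middle-aged, with log2 fold changes of −1.78 and −2.03. Kcna6 (Kv1.6) fell from 107 ± 9.53 to 30.8 ± 1.44 and from 143 ± 9.75 to 28.1 ± 3.50 CPM. Its log2 fold changes were −1.79 ± 0.13 and −2.35 ± 0.13, and 39.6% of its exon bases overlap the antisense gene Gm26673, from which reads could not be told apart without strand. The ratio of Kcna1 to Kcna2 per kb of exon was 6.57 to 10.5 over all pools. That of Kcna1 to Kcna6 was 4.16, 3.63 and 4.33 in middle-aged naïve and 6.22, 5.89 and 5.78 in middle-aged injured pools, which did not overlap (log2 difference 0.57). The exact permutation p was 0.1, the smallest that 3 pools against 3 allow, and 0.286 after adjustment over 10 ratio tests, so that these tests could not pass the threshold and show neither a change nor its absence. Kcna4 (Kv1.4, a fast-inactivating channel) was called at neither age, with an adjusted p of 0.0503 in the young and 0.155 in the middle-aged. These were 0.00887 and 0.0122 without middle-aged naïve replicate 2, and the young value was also called without middle-aged naïve replicate 1 (0.0405) or young naïve replicate 1 (0.049).

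Kcna5 (Kv1.5, known from heart and from activated microglia) was low, at 0.906 to 2.47 CPM in young naïve, 0.480 to 0.640 in middle-aged naïve, 4.03 to 5.72 in young injured and 1.99 to 2.48 in middle-aged injured pools. The injured pools lay above the naïve ones at both ages. It rose by log2 1.69 ± 0.38 (adjusted p = 0.00153) in the young and 1.98 ± 0.43 (adjusted p = 0.00117) in the middle-aged comparison. Stretches of 50 bases shared with Kcna6 make up 2.81% of the transcript of Kcna5. Kcna3 (Kv1.3, known from T cells and microglia) had 8, 9 and 6 counts in young naïve, 27, 2 and 11 in middle-aged naïve, 31, 24 and 33 in young injured pools and 28, 43 and 37 in middle-aged injured pools. For a single pool such counts are imprecise, as 8 counts in young naïve replicate 1 were 0.684 CPM of the total with a 95% Clopper-Pearson interval of 0.295 to 1.35 CPM, and these intervals cover counting error only. Its log2 fold change was 1.58 ± 0.59 (adjusted p = 0.0355) in the young and 1.27 ± 0.56 (adjusted p = 0.0634) in the middle-aged. The first was lost when any pool of the young groups was left out (adjusted p = 0.0532 to 0.0897), and the second was 2.37 (adjusted p = 0.00163) without middle-aged naïve replicate 1.

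The auxiliary subunits and partners of Kv1 fell as well. Kcnab2 (Kvβ2, the beta subunit of juxtaparanodal channels) had 290, 197 and 136 CPM in young naïve, 143, 176 and 185 in middle-aged naïve, 70.2, 61.4 and 79.4 in young injured and 65.1, 85.2 and 58.7 in middle-aged injured pools, with log2 fold changes of −1.56 and −1.27. Kcnab1 (Kvβ1) fell by 2.32 and 2.18 on the log2 scale. All 11 genes listed as partners of Kv1 and the juxtaparanode were lower at both ages, against 22.8% of all genes, with medians of −1.69 and −1.82. By the mean of the 2 ages the lowest were Lgi3 (−2.35 in the young, −2.78 in the middle-aged) and Lgi1 (−1.96 and −2.87), secreted proteins that bind the Kv1-associated receptors Adam22 and Adam23. By the same mean the smallest falls were those of the scaffold genes Dlg1 (−0.52 and −0.62) and Dlg4 (−1.19 and −1.53).

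Among the other auxiliary subunits, Kcnip1 and Kcnip4 (KChIP1 and KChIP4, which bind Kv4 channels) fell at both ages, with log2 fold changes of −1.69 and −1.30 and of −2.07 and −1.79. Kcnmb4, the neuronal beta subunit of the BK channel, fell 2.30-fold and 2.39-fold, but 31.5% of its exon bases lie under the antisense genes Kcnmb4os1 and Kcnmb4os2. Kcnip3 (KChIP3, also a calcium-binding transcription regulator) was one of the few abundant members called at neither age. It had 34.9 ± 3.29 CPM in young naïve, 25.8 ± 2.50 in middle-aged naïve, 31.8 ± 2.16 in young injured pools and 31.0 ± 3.96 in middle-aged injured pools. Its log2 fold changes were −0.14 (adjusted p = 0.459) in the young and 0.27 (adjusted p = 0.133) in the middle-aged. When libraries were scaled by their totals these were 0.06 (adjusted p = 0.743) and 0.38 (adjusted p = 0.0385), and the middle-aged value was then called higher. Kcne4 and Kcne1l, small single-pass subunits, were not called either, with log2 fold changes of 1.08 and 1.38 for Kcne4 (adjusted p = 0.156 and 0.0816). The first was called without middle-aged naïve replicate 2 (adjusted p = 0.0317), and the second was 2.09 (adjusted p = 0.0322) without middle-aged naïve replicate 3.

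Of the 7 tested two-pore-domain channels, 4 fell in the young and 6 in the middle-aged, against 26.3% and 29.3% of all genes. Kcnk6 rose at both ages, as did 24.5% of all genes. Kcnk6 (TWIK-2, a potassium leak channel known from macrophages) had 2.0, 2.72 and 7.53 CPM in young naïve, 3.46, 5.88 and 7.68 in middle-aged naïve, 21.4, 22.8 and 20.8 in young injured and 28.2, 23.4 and 26.3 in middle-aged injured pools. All injured pools were at least 20.8 CPM and no naïve pool was above 7.68. It rose by log2 2.43 ± 0.38 (adjusted p = 8.51e-05) and 2.19 ± 0.37 (adjusted p = 0.000142). The first was 3.19 without young naïve replicate 3, the highest of its group. Kcnk13 (THIK-1, the main background potassium channel of microglia) moved the other way. It had 48.6, 60.2 and 62.5 CPM in young naïve, 43.6, 44.8 and 66.5 in middle-aged naïve, 31.1, 33.3 and 32.3 in young injured and 35.1, 37.7 and 29.2 in middle-aged injured pools. The groups did not overlap at either age, and it fell by 0.83 (adjusted p = 0.00102) and 0.60 (adjusted p = 0.00803) on the log2 scale. The second value was −0.38 (adjusted p = 0.0544) without middle-aged naïve replicate 3.

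Kcnk1 (TWIK-1, a weak leak channel of neurons and astrocytes) fell from 92.7 ± 22.7 to 23.1 ± 3.87 CPM in the young and from 64.0 ± 6.66 to 16.1 ± 0.84 CPM in the middle-aged, with log2 fold changes of −2.01 and −1.99. Kcnk3 (TASK-1, acid-sensitive) fell by 2.59 and 2.39 on the log2 scale, and Kcnk5 (TASK-2, alkaline-activated) by 1.17 and 1.91. The TREK channels, which open on stretch, had values nearer to 0. Kcnk2 (TREK-1) had log2 fold changes of −0.44 (adjusted p = 0.122) in the young and −0.95 (adjusted p = 0.00304) in the middle-aged, and Kcnk10 (TREK-2) of −0.63 (adjusted p = 0.0928) and −0.78 (adjusted p = 0.033). The middle-aged call of Kcnk10 was lost without middle-aged naïve replicate 1 or 3 and without middle-aged injured replicate 1 or 2 (adjusted p = 0.0821 to 0.114). The young value was called without middle-aged naïve replicate 2 for both (adjusted p = 0.0363 for Kcnk2 and 0.043 for Kcnk10), and for Kcnk10 without young naïve replicate 2 (0.0324). The difference between the ages was not called for either.

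Among the calcium- and sodium-activated channels, Kcnn4 had the largest increase of the family. Kcnn4 (ENSMUSG00000054342, chr7:24370263-24386690, plus strand) encodes the intermediate-conductance calcium-activated channel KCa3.1, known from lymphocytes, microglia and macrophages. It had 1, 1 and 1 counts in young naïve, 1, 8 and 5 in middle-aged naïve, 59, 106 and 56 in young injured pools and 75, 62 and 59 in middle-aged injured pools. The naïve and injured pools were far apart, although the young naïve pools were below the floor of 3 counts. By library totals the summed counts, 3 against 221 in the young and 14 against 196 in the middle-aged pools, gave ratios of 66.4 (95% exact interval 22.4 to 325) and 13.5 (7.88 to 25.2). These intervals cover counting error of amplified reads only and leave out the spread between pools, and Kcnn4 met the count rule through the injured pools alone. The fitted log2 fold changes, which depend on the prior count at such levels, were 5.71 ± 0.62 (adjusted p = 2.70e-06) and 3.60 ± 0.50 (adjusted p = 2.38e-05). The second was 4.34 without middle-aged naïve replicate 2, which held 8 of the 14 naïve counts. The difference of these effects was not called (adjusted p = 0.449).

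The other members grouped with these channels fell or were not called. Kcnma1, the large-conductance BK channel, fell from 88.7 ± 30.4 to 31.9 ± 3.88 CPM in the young and from 89.2 ± 3.19 to 33.4 ± 2.89 CPM in the middle-aged, by 1.47 and 1.42 on the log2 scale. Of the small-conductance SK channels, which follow trains of action potentials with a slow hyperpolarisation, Kcnn2 fell by 2.63 and 2.93 and Kcnn1 by 1.59 and 2.18, whereas Kcnn3 (−0.41 and −0.50) was called at neither age, the second being −0.85 (adjusted p = 0.0425) without middle-aged naïve replicate 2. The sodium-activated Kcnt1 (Slack) fell by 1.97 and 2.82. Its relative Kcnt2 (Slick), at 0.538 to 3.76 CPM over all pools, had log2 fold changes of 0.64 (adjusted p = 0.307) in the young and −1.27 (adjusted p = 0.039) in the middle-aged. The second rested on middle-aged naïve replicate 3, with 3.76 CPM against 1.25 and 1.36 in the other naïve pools, and was −0.55 (adjusted p = 0.342) without it. It was also lost without any one of the middle-aged injured pools, the young injured pools or young naïve replicate 1 (adjusted p = 0.0516 to 0.108). Kcnu1 (Slo3, known from sperm) was low, with 3.72 ± 2.24 CPM in young naïve and 1.05 ± 0.35 in young injured pools, and fell by 1.82 and 2.01. The young value was −1.21 (adjusted p = 0.0665) without young naïve replicate 1.

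Of the 9 channels of the Kv2 to Kv4 classes, 6 fell in each comparison, against 26.3% of all genes in the young and 29.3% in the middle-aged, and 0 rose, against 28.3% and 29.2%. The Kv3 channels let neurons fire at high rates. Kcnc1 had 86.9, 44.5 and 32.8 CPM in young naïve and 29.3, 43.8 and 46.1 in middle-aged naïve pools, against 17.0, 15.8 and 22.4 in young injured pools and 22.9, 16.4 and 14.4 in middle-aged injured pools. Injured pools were below all naïve ones, and the log2 fold changes were −1.58 ± 0.31 and −1.15 ± 0.31. Kcnc4 fell 3.99-fold and 3.73-fold, whereas Kcnc2 was −1.19 (adjusted p = 0.0148) in the young, where the pools overlapped, and −0.62 (adjusted p = 0.181) in the middle-aged. The young call of Kcnc2 was lost without young naïve replicate 1 (−0.58, adjusted p = 0.154) and without young injured replicate 1 or 2 (adjusted p = 0.0534 and 0.0597). Of the Kv2 delayed rectifiers of the cell body, Kcnb2 fell by 2.08 and 2.41 on the log2 scale.

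The A-type Kv4 channels, which inactivate fast, differed among themselves. Kcnd2 (Kv4.2) had 101, 82.0 and 62.0 CPM in young naïve, 46.7, 17.3 and 46.2 in middle-aged naïve, 30.2, 36.2 and 34.7 in young injured and 32.2, 34.8 and 44.9 in middle-aged injured pools. The young naïve pools stood above all others. With injury it fell by 1.28 ± 0.29 (adjusted p = 0.00183) in the young, and the middle-aged value of 0.02 (adjusted p = 0.966) was not called and was −0.31 without middle-aged naïve replicate 2. Kcnd1 was −0.53 (adjusted p = 0.198) and −0.92 (adjusted p = 0.0298), and the second was lost without middle-aged naïve replicate 2 and without middle-aged injured replicate 2 or 3 (adjusted p = 0.0699 to 0.111). Kcnd3 (−0.13 and 0.29) was called at neither age.

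Of the 5 silent Kv subunits, which form no channel alone and modify Kv2 channels, Kcng1, Kcng4, Kcns1 and Kcns3 fell at both ages, as did 22.8% of all genes. Kcng4 had 67.3, 53.7 and 37.7 CPM in young naïve, 35.7, 42.1 and 48.3 in middle-aged naïve, 6.09, 7.21 and 6.48 in young injured and 3.32, 3.91 and 4.75 in middle-aged injured pools. No injured pool came near a naïve one, and the log2 fold changes were −3.00 ± 0.22 (adjusted p = 5.92e-08) and −3.40 ± 0.23 (adjusted p = 2.33e-08). Kcng1 fell by 2.74 and 2.46 and Kcns3 by 1.91 and 2.04. The values of Kcng1 were −2.06 without young naïve replicate 1 and −3.61 without middle-aged injured replicate 2. Kcns1 fell from 16.4 ± 1.65 to 5.20 ± 1.62 CPM in the young and from 26.1 ± 5.62 to 3.28 ± 0.96 CPM in the middle-aged, by 1.65 and 2.99 on the log2 scale, and the difference of these effects was −1.33 ± 0.37 with an adjusted p of 0.193. Kcns2 met the count rule through naïve pools alone and stood near the floor in injured pools, at 0.0863 to 0.559 CPM. It was called in the young (−2.04, adjusted p = 0.0173), and this was lost without young naïve replicate 1 or 2 and without young injured replicate 2 or 3 (adjusted p = 0.0505 to 0.0663).

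The Kv7 channels carry the M-current, which restrains repeated firing and is found at nodes and initial segments of axons. Kcnq3 had 71.6, 65.4 and 74.9 CPM in young naïve and 111, 49.4 and 85.2 in middle-aged naïve pools, against 35.7, 25.8 and 32.2 in young injured pools and 29.9, 19.1 and 37.9 in middle-aged injured pools. The injured pools lay below the naïve ones at both ages, and it fell 2.26-fold and 2.83-fold (edgeR adjusted p = 0.00189 and 0.000261). Kcnq5 was −0.69 (adjusted p = 0.359) in the young and −1.89 (adjusted p = 0.0134) in the middle-aged. Middle-aged naïve replicate 2 had 11.6 CPM against 2.69 and 3.04 in the other pools of its group, and without it the second value was −0.89 (adjusted p = 0.138). Without middle-aged injured replicate 3 its adjusted p was 0.055. Kcnq1, a channel of heart and epithelia, had 57 counts in middle-aged naïve replicate 1 and 1 to 10 counts in the other naïve pools, against 17 to 45 in injured pools, and was called at neither age. Without middle-aged naïve replicate 1 the values were 1.61 (adjusted p = 0.033) in the young and 3.62 (adjusted p = 0.00155) in the middle-aged. As given above, Kcnq1 met the count rule only with the injured pools. The antisense gene Kcnq1ot1, with 181 to 1044 counts, overlaps 3.0% of its exon bases.

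Of the 5 Kcnh members, relatives of the ether-a-go-go channel, 3 fell at both ages, against 22.8% of all genes. Kcnh1 (EAG1) fell from 8.88 ± 2.10 to 2.38 ± 0.79 CPM in the young and from 6.43 ± 1.99 to 2.10 ± 0.53 CPM in the middle-aged, by 1.90 and 1.61 on the log2 scale. Kcnh2 (ERG1, the channel of cardiac repolarisation) fell by 1.68 and 1.65 and Kcnh7 (ERG3) by 1.37 and 1.03. Kcnh5 and Kcnh8 were at 0.08 to 4.62 CPM over all pools and were called at neither age. Kcnh8 was highest in middle-aged naïve replicate 2, and without it its middle-aged value of 0.18 was 3.30 (adjusted p = 0.000976).

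Few members were called by age in either condition. Between the naïve groups, 2 of 62 members (3.2%) were lower in middle-aged pools and 0 were higher, against 3.8% of all genes called in either direction, and 14 members had an unadjusted p under 0.05, as did 18.3% of all genes. Kcnab3 (Kvβ3) had 18.2, 12.6 and 14.7 CPM in young naïve and 4.32, 6.82 and 7.60 in middle-aged naïve pools, which did not overlap. Its log2 difference was −1.28 ± 0.28 (edgeR adjusted p = 0.0244), with an adjusted p of 0.121 with only the pools compared, 0.0999 without young naïve replicate 1 and 0.0542 without young naïve replicate 3. With injury it fell by 2.14 in the young and 0.97 in the middle-aged, and the second call was lost without middle-aged naïve replicate 3 and without middle-aged injured replicate 1 or 3 (adjusted p = 0.0536 to 0.0599). Kcnd2, given above, was lower by log2 1.15 ± 0.29 in middle-aged naïve pools (adjusted p = 0.0428), and this call was lost in 10 of 20 alternative settings, among them the fit of only the pools compared (adjusted p = 0.242), without young naïve replicate 1 (0.152) or 2 (0.116) and without any of the 6 injured pools (0.055 to 0.0694). Between the injured groups 0 members were called in edgeR, against 1.15% of all genes, and 8 had an unadjusted p under 0.05 (9.62% of all genes). DESeq2 called 2 members there and 451 genes in all, against 182 genes in all in edgeR. The nearest was Kcnk5, at 10.6, 9.30 and 7.91 CPM in young injured and 3.82, 3.03 and 4.32 in middle-aged injured pools, with a log2 difference of −1.31 ± 0.30 (adjusted p = 0.0502). Kcnj10 was −0.55 ± 0.15 (adjusted p = 0.117) between the injured groups.

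The difference of the injury effects between the ages was called for 0 of 62 members in edgeR and in DESeq2. Over all genes it was called for 0.139% in edgeR (22 genes) and for 228 genes in DESeq2. In edgeR 8 members had an unadjusted p under 0.05 (9.92% of all genes). Among these, Kcns1 (−1.33), Kcna6 (−0.56) and Kcnj10 (−0.56) had lower and Kcnd2 (1.30) and Kcnab3 (1.17) had higher values in the middle-aged than in the young comparison. Their adjusted p-values were 0.193 to 0.378. A call at 1 age alone is thus not shown to differ between the ages for any member.

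Other genes of potassium handling were counted from fixed lists. Of 7 tested partners of other Kv, BK and ATP-sensitive channels, 5 fell in the young and 7 in the middle-aged, against 26.3% and 29.3% of all genes. Abcc8 (SUR1, the regulatory subunit of ATP-sensitive channels) fell by 2.26 and 2.21 on the log2 scale and Dpp6, a partner of Kv4, 2.15-fold and 2.93-fold, whereas Amigo1, a partner of Kv2, fell by 1.28 and 1.25 on the log2 scale and Abcc9 (SUR2) by 0.51 and 0.85. Of 11 potassium pumps and cotransporters, 2 rose and 5 fell in the young and 3 rose and 6 fell in the middle-aged. The shares that rose were no higher than those of all genes (28.3% and 29.2%), of which 26.3% and 29.3% fell. Slc12a7 (KCC4, a potassium-chloride cotransporter) rose by log2 2.07 and 1.91, and Atp1b3, a beta subunit of the sodium pump, by 0.30 and 0.34. Slc12a5 (KCC2, the neuronal cotransporter) fell by 2.16 and 2.42 and Atp1b1 by 1.98 and 1.84. Of 6 other tested channels that conduct potassium, 1 rose and 3 fell in the young, and 0 rose and 3 fell in the middle-aged, against the shares of all genes just given. Hcn2, a pacemaker channel, fell by 1.86 and 2.17, and the values were −1.28 and −1.16 for Tmem38a, which forms a channel of the sarcoplasmic reticulum.

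The 31 protein-coding Kcn genes below the rule were at most in 2 columns at 10 or more counts. Kcne1, Kcnj1, Kcnk15, Kcnk16, Kcnk18 and Kcnv2 had 0 counts in all 12 pools, which, taking 3 counts as the limit that a count of 0 allows, leaves room for up to 0.305 CPM in the smallest library. The highest single counts were 29 for Kcnmb2, 16 for Kcnj6, 15 for Kcnj11 and 14 for Kcnf1. The remaining 5 rows with a Kcn symbol were not protein-coding and were left out.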

How the data were processed

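RNA of 12 pools was analysed, with groups and replicate numbers from the sample labels, and hours and pool sizes from the series' design. The authors checked reads with FastQC 0.11.4, aligned them by TopHat 2.0.10, which ran bowtie 1.1.2, on the GRCm38 genome of Ensembl, and deposited raw counts per gene made by featureCounts. Annotation release, strand setting and the handling of shared reads are not given in the sources used here. Amplification during library building can add to the spread of low counts.

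Counts were fitted in R 4.3.3 with edgeR 4.0.16 (TMM, filterByExpr, glmQLFit, glmQLFTest), with 1 coefficient per group over all 12 pools, and p-values were adjusted by Benjamini-Hochberg over 15866 genes with a threshold of 0.05. The study used DESeq2, which served here (1.42.0) as an alternative. Each SE was obtained from the fold change (log2) and the root of its F statistic. CPM values use TMM-scaled library sizes, and exon lengths are unions of exons in GENCODE on GRCm38, in which 45229 of 46078 identifiers were found. Ratios of members were compared by 2-sided exact permutation tests. Where nothing ties pools to separate experiments, p-values measure the spread between these pools. In counts simulated with 100 genes changed by log2 1 and 100 by log2 2, edgeR called 48% and 88% of these in the young injury comparison. For the difference of effects it called 22.4% and 64.6%, so that a difference not called is not shown to be absent. Of all simulated calls in these 2 comparisons, 1.45% and 9.68% were false with edgeR and 13.1% and 21.1% with DESeq2. The real young comparison called 8660 of 15866 genes, far more than were changed in the simulation. Its adjustment of p is therefore less strict, and the simulated shares do not describe it.

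The members, gene lists and tests were chosen with earlier results of these data known. Members named with values were, in each subfamily, up to 3 at either end of the mean injury effect among those called at both ages in 1 direction, all called by age or for the difference of effects, up to 2 with the highest level per kb, and a fixed list of 17. Other members, given to account for the whole family, were described after their values were seen. From the lists of other genes, up to 2 with the highest and 2 with the lowest mean change among those called at both ages were named. Alternatives were other scalings and filters, DESeq2, the replicate number as a block, only the pools compared, and each pool left out. Results of some genes that the rule names are not reported here.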

Additional observations from a re-analysis of the deposited data

Results flagged for a closer look

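Kcnt2, the sodium-activated channel Slick, had values of opposite sign with injury at the 2 ages, of which the young one was not called (log2 0.64, edgeR adjusted p = 0.307) and the middle-aged one (−1.27, adjusted p = 0.039) was −0.55 (adjusted p = 0.342) without middle-aged naïve replicate 3. It had 0.820, 1.27 and 0.538 CPM in young naïve, 1.47, 1.32 and 1.36 in young injured, 1.25, 1.36 and 3.76 in middle-aged naïve and 1.08, 0.798 and 0.777 in middle-aged injured pools. All young injured pools were above, and all middle-aged injured pools below, the naïve pools of their age. This opposite separation is the rule by which Kcnt2 was picked from all members, and its share over all genes was not counted. The difference of the effects was −1.91 ± 0.71 on the log2 scale, with an unadjusted p of 0.0172 and an edgeR adjusted p of 0.358, so that it did not pass the threshold. All values are below 4 CPM.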

How the results depend on the processing

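The counts of members higher or lower with injury stayed within 1.5 times under all alternatives run, at 5 to 7 and 38 to 44 in the young and 3 to 5 and 38 to 45 in the middle-aged comparison, apart from pools left out. Leaving out each pool in turn gave 4 to 6 higher and 36 to 44 lower in the young, 3 to 6 higher and 38 to 45 lower in the middle-aged, 0 to 3 by age in naïve, 0 to 1 by age in injured, and 0 to 0 for the difference of effects. By age in naïve pools, the count of 2 became 1 with library totals alone, 5 with no filter on low counts, 4 with DESeq2 and 0 with only the pools compared. By age in injured pools, the count of 0 became 1, 2, 2 and 2 with the same settings, and for the difference of effects it became 2 with no filter. Over all genes, age in naïve pools called 603 in the main fit, 579 with library totals alone and 1085 with DESeq2. Age in injured pools called 182, 227 and 451 genes in these fits. Counts over all genes for the other 2 settings are not given here. With the replicate number as a block the counts were 5 higher and 40 lower in the young, 4 higher and 42 lower in the middle-aged, 2 by age in naïve, 0 by age in injured and 0 for the difference, and the numbers did not pair the pools (correlations of deviations of −0.113 to 0.153 for the same number). Of the log2 fold changes of 43 members under injury and, where called, age, 4 values turned direction. Kcnd2 in the middle-aged comparison (0.02) became −0.041 with upper-quartile factors, −0.314 without middle-aged naïve replicate 2 and −0.13 without middle-aged injured replicate 3 (range with 1 pool left out −0.314 to 0.223), and Kcnip3 in the young (−0.14) became 0.062 with library totals alone. Of the rest, 1681 kept direction and side of the threshold, 56 lost the threshold and 19 passed it. Library totals alone moved the median of all genes by 0.196 in the young and 0.109 in the middle-aged comparison, and the causes were not tested. Depth limits members near 0.305 CPM, such as Kcnk9, Kcns2 and Kcnn4 in naïve pools.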
